A study of Mus musculus with 23 samples.

Results

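The guanylate-binding proteins (GBPs) are a family of large GTPases, and the RNA of Gbp2 to Gbp11 was followed here in mouse bone marrow-derived macrophages, which are grown in culture from bone marrow cells. The members were taken by gene symbol, all 10 were found among 52636 genes in the count tables, and all 10 passed the filter on low counts, as did 15782 genes in all. The libraries fell into 8 groups by genotype (Stk40 WT or Stk40 KO) and time point. Cells were untreated at T0 and had received lipopolysaccharide (LPS), a bacterial cell wall component sensed by Toll-like receptor 4, at T6, T16 and T32. The labels give these time points without a unit. Each group had 3 libraries except WT at T16, which had 2, making 12 KO-labelled and 11 WT-labelled libraries. The sources used here do not say how the knockout was made, what the strain, age and sex of the mice were, or whether replicates came from separate mice. Stk40 encodes a pseudokinase.

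GBPs are among the most strongly interferon-responsive genes known. Interferons act through JAK kinases and STAT and IRF transcription factors, and macrophages exposed to LPS make interferon beta, so that GBP transcription follows LPS. The proteins gather on the membranes of pathogen-containing vacuoles and on bacteria that have entered the cytosol, together with the immunity-related GTPases, and they promote inflammasome signalling through caspase-11, which is encoded by Casp4 in the mouse. Gbp2 and Gbp5 carry a C-terminal motif for lipid attachment by prenylation, which anchors them to membranes.

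Depth ran from 19455080 to 44097733 counts per library. All 10 macrophage markers checked were present in every group, with a summed level of 15200 to 31190 CPM per library (counts scaled to library depth with TMM factors). Their sums by genotype are given with the markers of other cell types. Stk40 RNA was not lower in KO-labelled than in WT-labelled libraries. At T0 it was 56.5 ± 4.8 against 48.1 ± 7.3 CPM (SD, n = 3 each), with overlapping ranges. At T6, T16 and T32 every KO-labelled library lay above every WT-labelled one, as for 5.96%, 20.4% and 17.5% of all genes. The 4 log2 differences, 0.23 to 0.43, did not pass the test. Stk40 RNA therefore gave no check of the labels, and every direction below rests on the genotype labels. Some libraries stood apart. Mitochondrial genes took 0.35% of the counts in KO T0 replicate 1 and 1.38% to 1.82% in the rest of the T0 libraries, and Saa3 was the most abundant gene in WT T6 replicate 2, KO T6 replicate 2 and WT T16 replicate 2. Y-linked transcripts summed to 42.8 to 143 CPM in 1 WT-labelled library per time point and to at most 0.107 CPM in all other libraries, KO-labelled ones included, with a threshold of 5 CPM for calling them present. The library above it was replicate 1 at T6, replicate 2 at T0 and T16, and replicate 3 at T32.

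The family lies in clusters on 2 chromosomes (GRCm38, GENCODE M21). On chromosome 3, plus strand, the order was Gbp5 (142493978 to 142522344), Gbp7 (142530342 to 142550149), Gbp3 (142560026 to 142573209) and Gbp2 (142620602 to 142638008). On chromosome 5, minus strand, it was Gbp8 (105014150 to 105139540), Gbp9 (105077630 to 105139539), Gbp4 (105115767 to 105139586), Gbp10 (105215699 to 105239533), Gbp6 (105270702 to 105293698) and Gbp11 (105323042 to 105346472). Of the 10, GENCODE gives 9 as protein coding and Gbp11 as a polymorphic pseudogene. Exons of Gbp8, Gbp9 and Gbp4 shared 60 to 61 bases, a small part of each gene.

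Near-identical copies limit how well reads can be given to single members. Of all 50-base words in its exons, a length equal to that of the reads, Gbp10 shared 84.1% with other genes and Gbp6 70.7%, mostly with each other and with the neighbouring gene Gm43302. Exons of Gbp10 and Gbp6 also overlapped those of Gm43302 on the same strand, over 46.3% and 29.0% of their length. Gbp11 shared 19.2%, Gbp8 18.1%, Gbp7 12.7%, Gbp9 8.05% and Gbp4 7.78%, while Gbp3, Gbp2 and Gbp5 shared 3.75%, 2.03% and 1.44%. The deposited counts are of uniquely aligned reads, so reads that fit several copies equally well are left out. Levels of Gbp6 and Gbp10 may therefore be too low beside those of members with little shared sequence. Their values are also uncertain as to which copy they come from.

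All members except Gbp8 rose with LPS, and the sequence upstream of start sites is shown with the motifs through which interferon acts. RefSeq promoter windows (GRCm38.p6, chromosome 3, plus strand) were matched for 4 of 10 members, Gbp2, Gbp3, Gbp5 and Gbp7. None was matched for Gbp4, Gbp6, Gbp8, Gbp9, Gbp10 and Gbp11. The 250 bases before the start are printed 5′ to 3′, with capitals marking every match to a core of the interferon-stimulated response element (ISRE, TTTC and again TTTC after any 2 bases) or of the gamma-activated site (GAS, TTCNNNGAA), searched on both strands. The windows are chr3:142620413-142620662 for Gbp2, chr3:142559794-142560043 for Gbp3, chr3:142496684-142496933 for Gbp5 and chr3:142530086-142530335 for Gbp7.
Gbp2: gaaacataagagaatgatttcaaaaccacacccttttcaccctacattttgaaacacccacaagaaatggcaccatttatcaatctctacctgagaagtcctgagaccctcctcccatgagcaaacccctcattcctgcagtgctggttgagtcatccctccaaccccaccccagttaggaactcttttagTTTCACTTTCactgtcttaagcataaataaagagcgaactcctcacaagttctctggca
Gbp3: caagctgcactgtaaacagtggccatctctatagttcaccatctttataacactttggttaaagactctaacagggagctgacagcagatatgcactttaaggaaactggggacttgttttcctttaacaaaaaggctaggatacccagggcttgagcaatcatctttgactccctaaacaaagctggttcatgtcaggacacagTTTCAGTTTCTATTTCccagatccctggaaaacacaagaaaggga
Gbp5: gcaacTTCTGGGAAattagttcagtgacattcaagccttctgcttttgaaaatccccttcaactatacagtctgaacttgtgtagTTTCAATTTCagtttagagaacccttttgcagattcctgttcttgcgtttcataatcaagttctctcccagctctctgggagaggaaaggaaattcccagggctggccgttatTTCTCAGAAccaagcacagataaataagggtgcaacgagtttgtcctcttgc
Gbp7: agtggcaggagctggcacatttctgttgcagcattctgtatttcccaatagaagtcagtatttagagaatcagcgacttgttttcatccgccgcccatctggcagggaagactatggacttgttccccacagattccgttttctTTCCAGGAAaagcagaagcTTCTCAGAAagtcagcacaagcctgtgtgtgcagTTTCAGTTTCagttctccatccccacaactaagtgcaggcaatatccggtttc
Each of the 4 windows held the ISRE core. It began 59 bases before the start in Gbp2 (TTTCACTTTC), 45 bases before it in Gbp3 (TTTCAGTTTC, overlapping a further match, TTTCTATTTC, at 39 bases), 53 bases before it in Gbp7 (TTTCAGTTTC) and 165 bases before it in Gbp5 (TTTCAATTTC). In all, 2.98% of 32851 promoter entries held this core in a window of the same length. The GAS core occurred in Gbp5 at 245 and 52 bases before the start and in Gbp7 at 106 and 87 bases, and 7.02% of all entries held it. A further entry for Gbp3, starting at 142560106, held neither. These are matches of letters, and binding was not measured.

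Levels of different members were compared per gene length, as the authors' normalised RPKM (nRPKM). Gene length makes no allowance for reads left out because of shared sequence, so Gbp6 and Gbp10 may stand too low in the orders and shares below. In untreated WT-labelled cells Gbp2, which acts at parasite and bacterial vacuoles, was the most abundant at 32.94 ± 11.02 nRPKM (SD, n = 3), followed by Gbp3 at 15.9 ± 5.0, Gbp9 at 7.66 ± 1.15 and Gbp5 at 6.33 ± 2.60. Gbp8 had 3.25 ± 1.02, Gbp7 2.75 ± 0.73, Gbp6 1.34 ± 0.55 and Gbp4 1.16 ± 0.45 nRPKM. Gbp11 was at 0.197 ± 0.102 and Gbp10 had no count. In that order the library ranges of Gbp9 and Gbp5, Gbp5 and Gbp8, Gbp8 and Gbp7, and Gbp6 and Gbp4 overlapped, so those neighbours were not separated beyond their spread.

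At T6 in WT-labelled cells Gbp2 stayed first at 1622 ± 419 nRPKM (SD, n = 3) and Gbp5, known for its link to NLRP3 inflammasome assembly, moved from the fourth to the second place at 731 ± 257. Gbp3 followed at 444 ± 51, Gbp9 at 104 ± 12, Gbp4 at 70.6 ± 6.7, Gbp7 at 58.2 ± 20.0 and Gbp6 at 37.7 ± 2.1. Gbp8 and Gbp11 were far below, at 3.22 ± 0.81 and 3.19 ± 0.68, and Gbp10 was last at 0.217 ± 0.111. The ranges of Gbp5 and Gbp3, Gbp4 and Gbp7, Gbp7 and Gbp6, and Gbp8 and Gbp11 overlapped. In KO-labelled cells at T6 Gbp2, Gbp5 and Gbp3 led in the same order, at 1825 ± 455, 1023 ± 432 and 613 ± 112 nRPKM, with overlapping ranges between neighbours.

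Summed over the family, WT-labelled libraries held 71.5 ± 21.1 nRPKM at T0, 3073 ± 752 at T6, 607 ± 34 at T16 (n = 2) and 342 ± 112 at T32. KO-labelled libraries held 175 ± 62, 3922 ± 1091, 1352 ± 269 and 765 ± 91 (n = 3 each). The ranges of the genotypes overlapped only at T6, at 2210 to 3585 against 2683 to 4737. Gbp2 alone made up 43.4% to 63.4% of this sum on average, depending on the group. Gbp5 made up 8.61% ± 1.31 in WT at T0 and 23.3% ± 3.2 at T6, and Gbp8 made up 4.69% ± 1.40 and 0.115% ± 0.063.

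**Figure D1:**
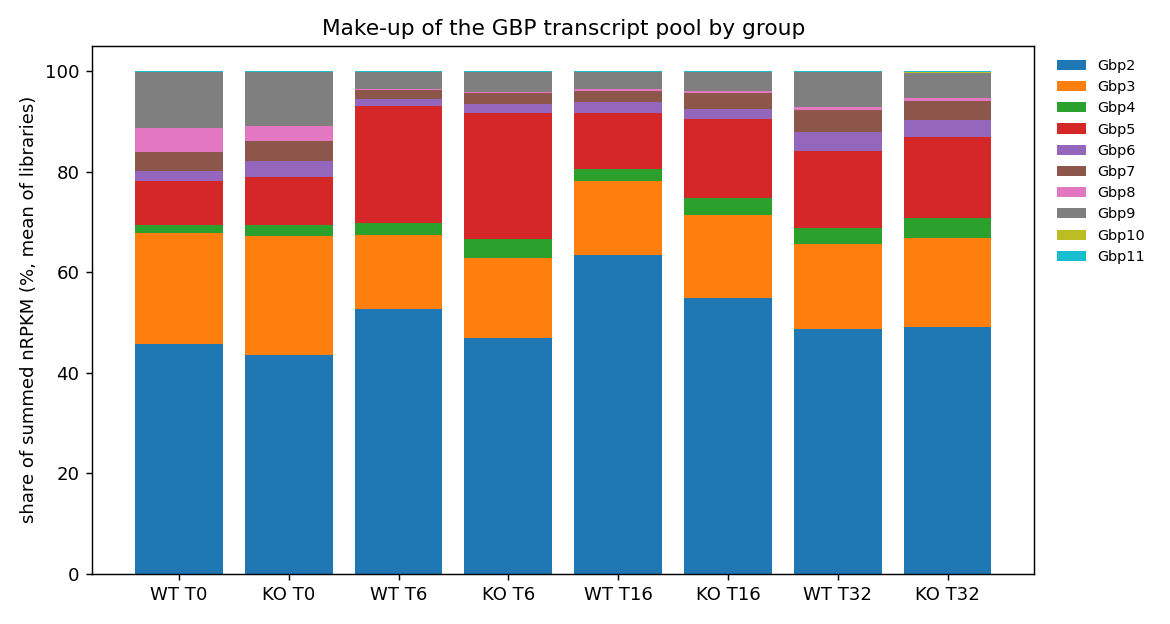
Share of the summed nRPKM (length-scaled level, %) held by each of the 10 members in each of the 8 groups, as means over 3 libraries (2 for WT T16). Gbp2 is the largest segment in every group, and the Gbp5 segment widens from 8.61% in WT T0 to 23.3% in WT T6.

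The question behind the LPS time course is how transcripts respond to LPS in each genotype. In what follows 1 gene is compared across libraries as TMM-scaled CPM, differences are log2 fold changes ± standard error (SE), and a gene was called where the adjusted p (edgeR quasi-likelihood test, Benjamini-Hochberg over all genes tested) was under 0.05. In bulk RNA, fewer cells of a type and less RNA per cell cannot be told apart. In WT-labelled cells 9 of 10 members rose from T0 to T6, where 59.1% of all genes tested were called and 27.3% rose. The median of the 10 log2 differences was 4.73, against -0.14 over all genes.

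Gbp5 gave the largest fold among members with counts at T0. Its level was 23.8, 30.5 and 12.5 CPM in the WT T0 libraries and 2933, 1428 and 2940 CPM at T6, a log2 difference of 6.78 ± 0.50 (109.5-fold, adjusted p = 5.27e-10). Every T6 library was far above every T0 library, and the lowest of them was the replicate led by Saa3. Gbp4, which is known to restrain IRF7 signalling, went from 6.65, 8.03 and 3.52 to 358.1, 309.7 and 378 CPM (5.85 ± 0.36, 57.9-fold, adjusted p = 3.43e-11). Gbp2 went from 96.6, 126.5 and 63.3 to 5431, 3123 and 4782 CPM, 46.6-fold higher. In these 3 genes the lowest T6 library was far above the highest T0 library.

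Gbp3 and Gbp6 rose by similar log2 differences, 4.72 ± 0.29 and 4.73 ± 0.24. Gbp7, a member linked to oxidant production and autophagy, rose by 4.32 ± 0.44, Gbp11 by 3.96 ± 0.40 and Gbp9 by 3.68 ± 0.23. Gbp10 had 0 counts in all 3 WT T0 libraries and 57 counts over the T6 libraries, which makes it at least 28.8-fold higher against a floor of 3 counts over the group. Gbp8 was the exception in the family. It stood at 12.4, 8.35 and 6.88 CPM at T0 and 7.20, 10.98 and 7.57 CPM at T6, with overlapping ranges, and its log2 difference of -0.10 ± 0.28 (95% interval -0.68 to 0.47) did not pass the test.

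At T16 the same 9 members were above T0 in WT-labelled cells, where 36% of all genes were called, 18.8% higher and 17.2% lower. Levels were 977 and 1237 CPM for Gbp2, 266.4 and 202.9 for Gbp5 and 70.3 and 84.8 for Gbp4, which gave log2 differences from T0 of 3.54 ± 0.36, 3.40 ± 0.45 and 3.69 ± 0.34. Gbp8 was at 4.46 and 5.52 CPM in the 2 libraries, below all T0 libraries, and fell by 0.88 on the log2 scale (SE 0.32, adjusted p = 0.0356). That call was lost without either WT T16 replicate 2 (-1.04, adjusted p = 0.0727) or WT T16 replicate 1 (-0.73, adjusted p = 0.194), and without WT T0 replicate 1 (-0.60, adjusted p = 0.176). The rise of Gbp11 at T16, by 1.37 ± 0.44 to 1.54 ± 0.37 CPM, also lost its call without WT T16 replicate 1 (adjusted p = 0.154), WT T0 replicate 1 (0.061) or WT T0 replicate 3 (0.0882). Gbp7 rose by 2.20 ± 0.43, with 121.6 and 41.4 CPM in the 2 libraries, and its call too was lost without WT T16 replicate 1 (1.22, adjusted p = 0.0502).

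At T32 the 9 members were still above T0 in WT-labelled cells (46.4% of all genes called, 24.5% higher), with a median log2 difference of 2.37 over the 10. Gbp4 (3.28 ± 0.32), Gbp6 (3.23 ± 0.23) and Gbp5 (3.10 ± 0.43) were furthest above T0 among members with counts at T0, and Gbp9 was nearest to it (1.57 ± 0.21). Gbp10 was at least 9.90-fold higher at T16 and at least 16.2-fold higher at T32 than at T0. Gbp8 did not pass the test at T32 (-0.41 ± 0.27, adjusted p = 0.224).

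The KO-labelled cells followed the same course. From T0 to T6, T16 and T32 the same 9 members rose and Gbp8 did not pass the test, where 58.6%, 43.7% and 38.2% of all genes were called and 26.2%, 20.4% and 18.2% were higher. At T6 Gbp5 rose from 91.7, 42.6 and 45.7 to 3880, 1728 and 4347 CPM (5.79 ± 0.48), Gbp4 by 5.05 ± 0.34 and Gbp11 by 4.58 ± 0.40. Gbp10 rose from 0.226, 0.0346 and 0.0344 CPM at T0 to 1.24, 0.530 and 1.55 at T6 and to 2.25, 2.39 and 2.60 at T32. Its log2 differences from T0 were 3.32 ± 0.64 at T6, 3.48 ± 0.63 at T16 and 4.43 ± 0.62 at T32, on T0 counts of 9, 1 and 1. Gbp10 and Gbp8 were the members whose group mean in KO-labelled cells was highest at T32, but Gbp8 stayed between 13.1 and 14.4 CPM on average at all 4 time points. With library totals as scaling, under which the median of all genes was -0.94 in WT and -1 in KO, Gbp8 was called lower at T6 in WT (-0.89) and KO (-0.84).

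**Figure D2:**
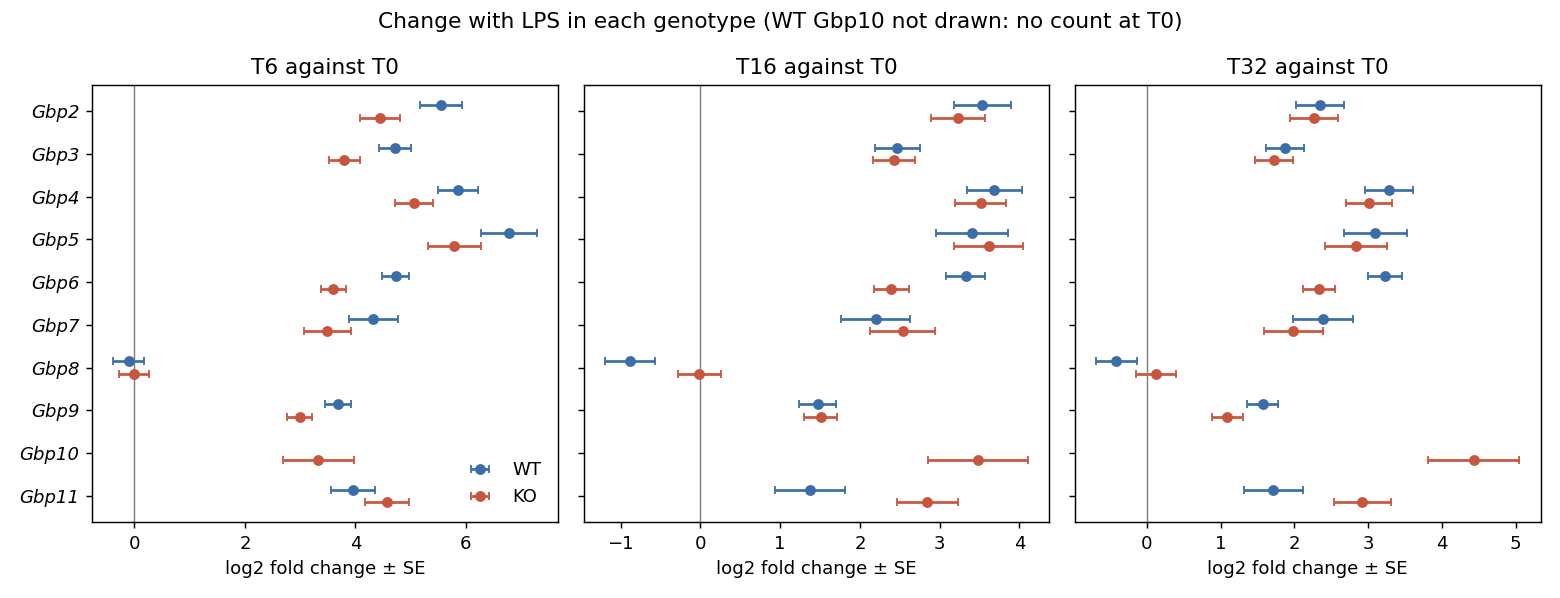
Log2 fold change from T0 (± SE) of each member at T6, T16 and T32 in WT-labelled and KO-labelled cells. All members other than Gbp8 lie to the right of 0 in every panel, and Gbp10 in WT is not drawn because its T0 libraries held 0 counts.

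Levels were lower at T16 than at T6. In WT-labelled cells 8 of 10 members fell between them (42.2% of all genes called, 19.5% lower), and Gbp8 (-0.78 ± 0.32, adjusted p = 0.0568) and Gbp10 (-1.53 ± 0.65, adjusted p = 0.0694) did not pass. Gbp5 fell by 3.37 on the log2 scale (SE 0.51), more than any other member, followed by Gbp11 at 2.59 (SE 0.42), Gbp3 at 2.25 (SE 0.31) and Gbp9 at 2.21 (SE 0.25). In KO-labelled cells 8 members also fell (46.1% of all genes called, 21.8% lower), with Gbp5 again first at -2.17 ± 0.41. Gbp8 (-0.01 ± 0.27) and Gbp10 (0.16 ± 0.50) did not pass there, and the call of Gbp7 (-0.96 ± 0.39, adjusted p = 0.0488) was lost in most alternatives. Between T16 and T32 edgeR called 0 of 10 members in either genotype, where 2.91% of all genes in WT and 2.55% in KO were called. At an unadjusted p under 0.05 there were 2 members in each genotype, and DESeq2 called 1 in each, while a fit on the KO libraries of these time points alone called 6. The 2.91% and 2.55% belong to the adjusted edgeR fit of all libraries and are no background for these further counts. The largest difference between T16 and T32 was in Gbp2, at -1.19 ± 0.35 in WT (adjusted p = 0.0695) and -0.96 ± 0.32 in KO (adjusted p = 0.132).

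Ordered by group mean in WT-labelled cells, every member other than Gbp8 was highest at T6 and lowest at T0. Ranges at T16 and T32 did not overlap for Gbp2 (977 to 1237 against 387 to 666 CPM), Gbp3 (286.2 to 332.8 against 156.8 to 280.7) and Gbp8 (4.46 to 5.52 against 5.57 to 7.78), as for 31.3% of all genes, and they overlapped for the other 7, whose order at those time points is within their spread.

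**Figure D3:**
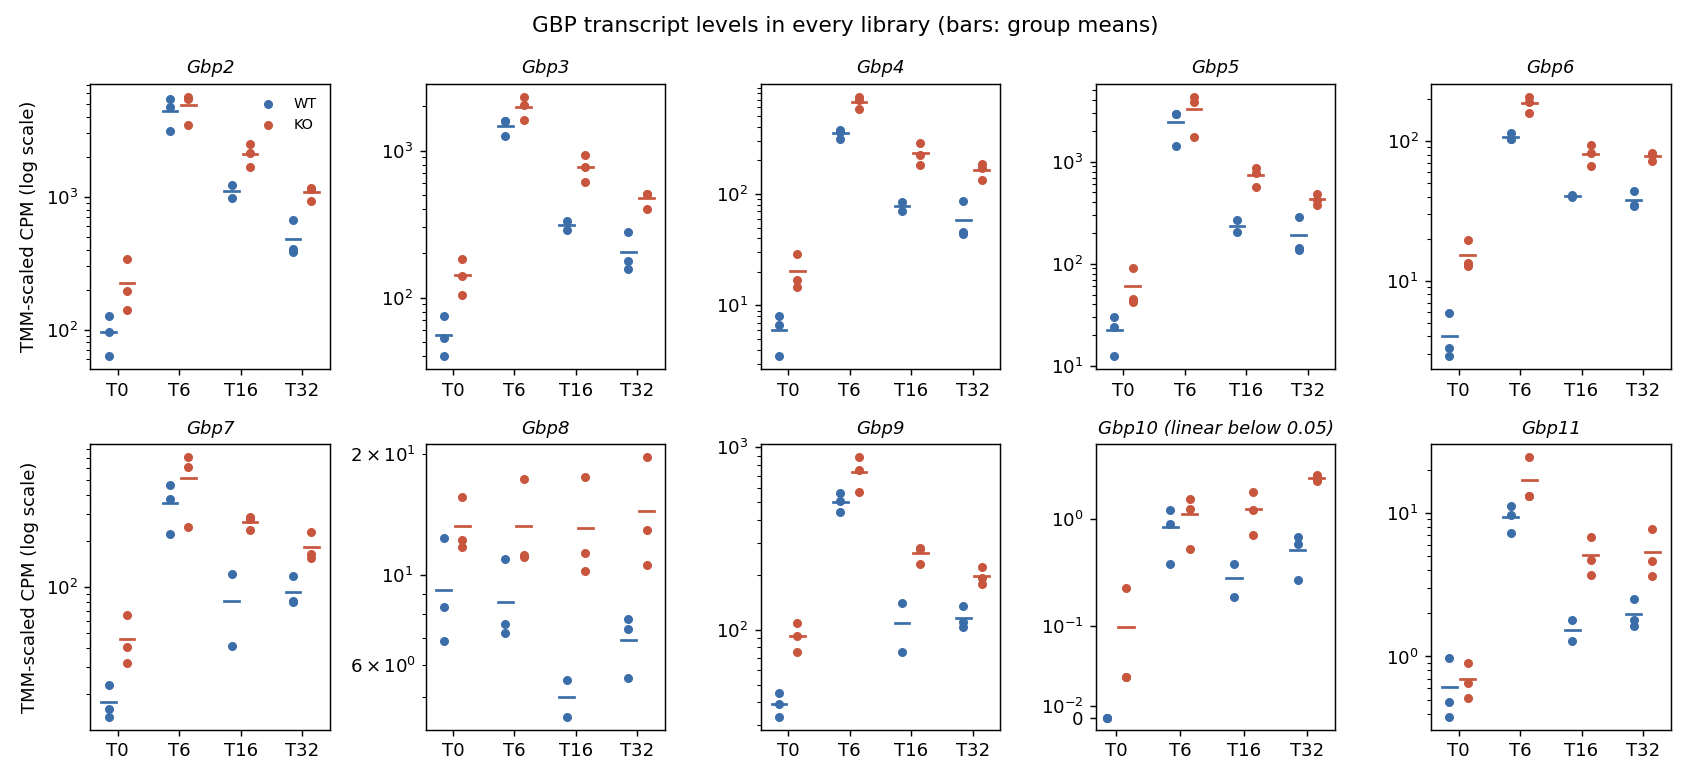
TMM-scaled CPM (log axis, linear below 0.05 for Gbp10) of each member in all 23 libraries by time point, with WT-labelled libraries in blue, KO-labelled libraries in red and bars at the group means. Gbp2 means run from 95.5 CPM in WT T0 to 4873 CPM in KO T6, and Gbp8 stays within 4.46 to 19.6 CPM.

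The comparison of KO-labelled with WT-labelled cells asks whether Stk40 genotype changes these levels. In untreated cells 5 of 10 members rose (Gbp2, Gbp3, Gbp4, Gbp6 and Gbp9), none fell, and 1.95% of all genes were called and 1.83% rose. The median log2 difference of the 10 was 1.37, against 0.00 over all genes. In 8 of 10 members every KO-labelled library lay above every WT-labelled one, as it did for 8.79% of all genes.

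Gbp6 had the largest difference among members with counts in both genotypes. It was at 5.89, 2.90 and 3.29 CPM in WT and 19.7, 12.8 and 13.5 CPM in KO libraries at T0 (log2 difference 1.93 ± 0.22, 3.82-fold, adjusted p = 4.63e-05). The KO values were all more than 2-fold above the WT values, subject to the read sharing of Gbp6 with Gbp10 and Gm43302. Gbp4 was at 6.65, 8.03 and 3.52 CPM in WT and 29.0, 17 and 14.7 CPM in KO (1.75 ± 0.31, adjusted p = 0.00241). Gbp3, which has little shared sequence, was at 53.0, 74.8 and 40.1 CPM in WT and 184.2, 104.9 and 139.8 CPM in KO (1.35 ± 0.26, adjusted p = 0.00422). Gbp9, which is recruited to parasite vacuoles, was at 39.4, 44.8 and 33.4 CPM in WT and 108.9, 75.7 and 92.7 CPM in KO (1.24 ± 0.21, adjusted p = 0.00182). In all of these the lowest KO library was above the highest WT library, and the highest KO value came from replicate 1.

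Gbp2 was at 96.6, 126.5 and 63.3 CPM in WT and at 337.8, 139.4 and 195.8 CPM in KO. Its difference of 1.23 ± 0.32 was just past the threshold (adjusted p = 0.0498) and kept its call in 10 of 32 alternatives. Without KO T0 replicate 1, the library with few mitochondrial counts, it was 0.81 (adjusted p = 0.437), while Gbp3, Gbp4, Gbp6 and Gbp9 kept their calls (1.13, 1.39, 1.71 and 1.10). Fitted on the T0 libraries alone, Gbp6 and Gbp9 kept their calls, and Gbp2 (1.22, adjusted p = 0.216), Gbp3 (1.34, adjusted p = 0.068) and Gbp4 (1.73, adjusted p = 0.0707) lost theirs at nearly the same differences. Gbp5 (22.3 ± 9.1 against 60.0 ± 27.5 CPM) and Gbp7 (17.8 ± 4.7 against 46.3 ± 17.6 CPM) differed by 1.43 ± 0.40 and 1.38 ± 0.40, with adjusted p = 0.0817 and 0.0903. Gbp8 (0.53 ± 0.27) and Gbp11 (0.24 ± 0.43) had overlapping ranges and did not pass. Gbp10 had 0 counts in WT and 9, 1 and 1 counts in KO, at least 3.72-fold higher against the floor of 3 counts over the group, and did not pass the test (adjusted p = 0.148).

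At T6 no member was called by edgeR, where 0.298% of all genes were, 0.209% higher. At an unadjusted p under 0.05 there were 5 members, and DESeq2 called 1, Gbp6, which edgeR also called without WT T0 replicate 1 (0.81, adjusted p = 0.0446). The shares given are of adjusted edgeR calls, so these further counts have no share of all genes beside them. All 10 log2 differences were above 0, with a median of 0.55 against -0.01 over all genes, and in 6 members every KO-labelled library lay above every WT-labelled one, against 5.96% of all genes. Gbp4 was at 358.1, 309.7 and 378 CPM in WT and 695.8, 575.2 and 746.8 CPM in KO, a difference of 0.95 ± 0.29 (adjusted p = 0.199). Gbp6 was at 103, 104.1 and 113.2 CPM in WT and 190.3, 158.8 and 207.7 CPM in KO, a difference of 0.80 ± 0.20 (adjusted p = 0.104, and 0.00852 in DESeq2). Neither gene's ranges overlapped. Gbp2, at 4445 ± 1190 against 4873 ± 1210 CPM, had the smallest difference, 0.13 ± 0.31 (95% interval -0.52 to 0.79).

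The 2 Saa3-led T6 libraries, 1 of each genotype, were the lowest of their group for Gbp2, Gbp3, Gbp4, Gbp5, Gbp7, Gbp9 and Gbp10. They were the highest for Gbp8 (10.98 CPM in WT and 17.4 CPM in KO) and Gbp11 (11.1 and 24.3 CPM), and for Gbp6 only the KO library was the lowest. Gbp5 was at 1428 CPM in that WT library against 2933 and 2940 CPM in the others, and at 1728 CPM in that KO library against 3880 and 4347 CPM. Gbp7 was at 221.9 against 381.1 and 464.8 CPM in WT, and at 248.2 against 608.2 and 708 CPM in KO. Without these 2 libraries the differences at T6 were 0.13 to 0.97 and again none was called. Same-numbered T6 libraries deviated together, and with the replicate number as a block within T6 the differences were 0.14 to 0.94, with no call and a lowest adjusted p of 0.067.

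At T16, 8 of 10 members rose in KO-labelled cells (all but Gbp2 and Gbp10), with 7.64% of all genes called, 4.16% higher and 3.48% lower. In all 10 the KO-labelled libraries were above the WT-labelled ones, as for 20.4% of all genes, and the median log2 difference was 1.49, against -0.01 over all genes. It was 1.48 in the 4 members on chromosome 3 and 1.49 in the 6 on chromosome 5. Gbp9 was at 141 and 75.8 CPM in WT and 278.2, 228.3 and 281.1 CPM in KO (1.28 ± 0.24, adjusted p = 0.00401). Gbp4 was at 70.3 and 84.8 CPM in WT and 225.4, 181.9 and 287.6 CPM in KO (1.58 ± 0.34, adjusted p = 0.00922). Gbp3 was at 332.8 and 286.2 CPM in WT and 767.6, 613.2 and 936.7 CPM in KO (1.32 ± 0.29, adjusted p = 0.0108). In each of these genes the lowest KO library was above the highest WT library.

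Gbp8, which LPS did not raise, was at 4.46 and 5.52 CPM in WT and 11.4, 10.3 and 17.6 CPM in KO at T16 (1.39 ± 0.32, adjusted p = 0.0133). Gbp7 was at 121.6 and 41.4 CPM in WT and 290.2, 236.4 and 279.8 CPM in KO (1.72 ± 0.46, adjusted p = 0.026). Its WT libraries lay far apart, and both were below all KO libraries. Gbp5 (1.65 ± 0.46), Gbp6 (1.003 ± 0.24) and Gbp11 (1.71 ± 0.41) were called at adjusted p = 0.0352, 0.0147 and 0.0171. Gbp2, at 977 and 1237 CPM in WT and 2140, 1669 and 2516 CPM in KO, differed by 0.93 ± 0.36 and did not pass (adjusted p = 0.114). Gbp10, at 0.381 and 0.188 CPM in WT and 0.706, 1.21 and 1.80 CPM in KO, differed by 2.08 ± 0.64 (adjusted p = 0.0531).

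The calls at T16 rested on the 2 WT-labelled libraries. Without WT T16 replicate 2, which carried Y-linked transcripts and the high Saa3, no member was called, although the 10 differences stayed between 0.90 and 1.72 (lowest adjusted p = 0.0807), on a WT arm of 1 library assumed to vary like the other groups. Without WT T16 replicate 1, 8 were called and Gbp7 moved to 2.70 and Gbp9 to 1.79. Without KO T16 replicate 3, 3 were called. Fitted on the T16 libraries alone, the differences were 0.91 to 2.06, with 0 members called (adjusted p = 0.0731 to 0.116) and 9 genes called in all of 14140 tested.

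At T32, 8 of 10 members rose (all but Gbp5 and Gbp7), with 6.39% of all genes called and 3.05% higher. Again the KO-labelled libraries were above the WT-labelled ones in all 10, as for 17.5% of all genes, and the median log2 difference was 1.16, against -0.01. Gbp10 had the largest difference. It was at 0.580, 0.268 and 0.681 CPM in WT and 2.25, 2.39 and 2.60 CPM in KO (2.26 ± 0.51, 4.78-fold, adjusted p = 0.0117), on 12 to 98 counts per library. Gbp6 was at 34.4, 34.6 and 43.8 CPM in WT and 71.7, 79.0 and 81.8 CPM in KO (1.04 ± 0.21, adjusted p = 0.00439). Gbp4 was at 44.1, 45.9 and 86.2 CPM in WT and 132.2, 184.1 and 171.8 CPM in KO (1.47 ± 0.29, adjusted p = 0.0049). WT replicate 3, the library with Y-linked transcripts, was the highest of its group at T32 in every member except Gbp8.

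Gbp3 (1.20 ± 0.25), Gbp11 (1.44 ± 0.35), Gbp8 (1.06 ± 0.27), Gbp9 (0.76 ± 0.21) and Gbp2 (1.16 ± 0.32) were called at T32 with adjusted p = 0.00695 to 0.033. Gbp2 was at 402.6, 386.6 and 665.8 CPM in WT and 934.2, 1138 and 1174 CPM in KO. Gbp5 (1.17 ± 0.40, adjusted p = 0.0876) and Gbp7 (0.97 ± 0.39, adjusted p = 0.156) did not pass, though neither had overlapping ranges. Single libraries set how many were called: 2 without WT T32 replicate 2, 4 without WT T32 replicate 1, 5 without KO T32 replicate 2 and 4 without KO T32 replicate 3. Gbp4 and Gbp6 kept their calls in all 32 alternatives.

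**Figure D4:**
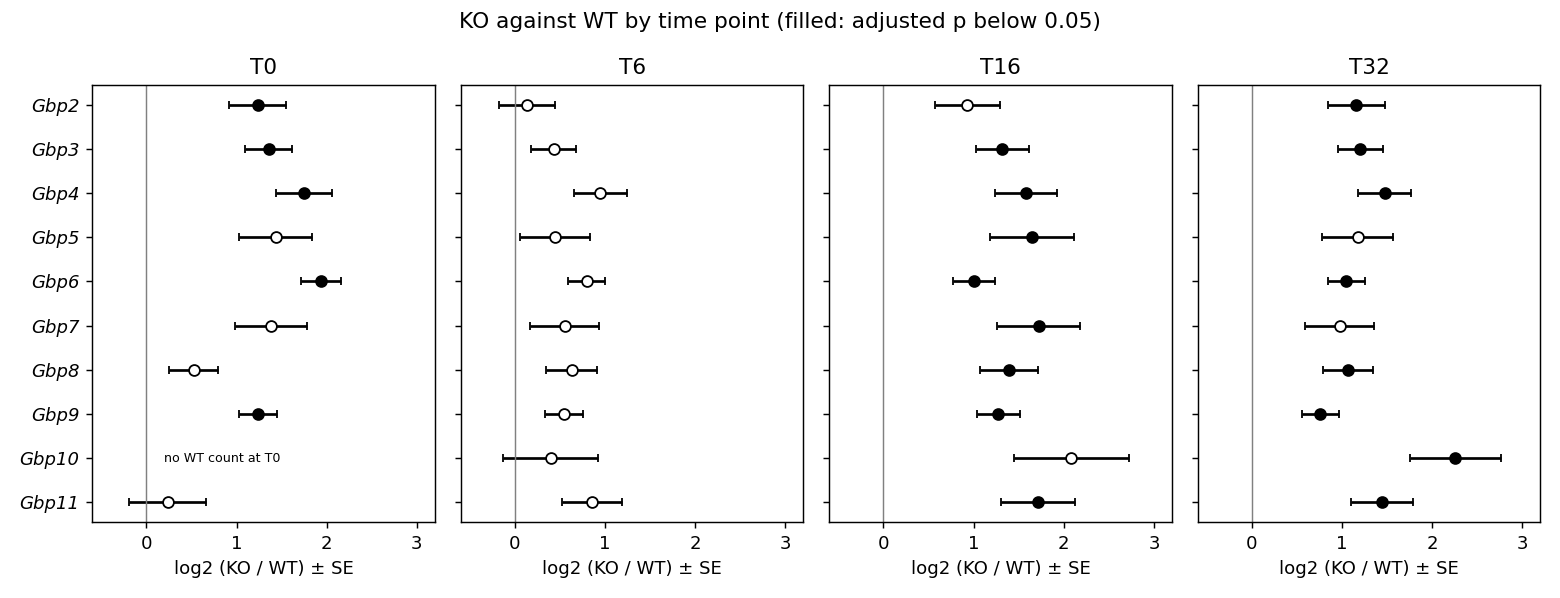
Log2 difference KO against WT (± SE) of each member at T0, T6, T16 and T32, with filled points for adjusted p under 0.05. Of 10 members, 5 are filled at T0, 0 at T6, 8 at T16 and 8 at T32, and all drawn points lie to the right of 0.

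Whether the genotype difference itself changed with LPS was tested as an interaction. The change of the KO-WT difference from T0 passed the test in 0 of 10 members at T6, T16 and T32, where 0.101%, 0.0697% and 0.387% of all genes were called by edgeR. At an unadjusted p under 0.05 there were 5, 3 and 2 members, and DESeq2 called 1, 0 and 0, with no share of all genes given for either. Those at T6 (Gbp2, Gbp3, Gbp6, Gbp9 and Gbp10) all had a smaller difference than at T0. The median change at T6 was -0.88 over the 10 members, against -0.04 over all genes. At T16 and T32 the directions were mixed, with Gbp6 smaller and Gbp11 larger at both. The lowest p was that of Gbp6 at T6, whose difference was smaller than at T0 by -1.14 ± 0.30 (95% interval -1.76 to -0.51, adjusted p = 0.252). It passed in DESeq2 (-1.11, adjusted p = 0.0395) and without WT T0 replicate 1 (-1.52, adjusted p = 0.029). In the edgeR fit of all libraries the change from T0 passed in 0 of 10 members, Gbp6 included. Calls at T0 beside none at T6 therefore do not show that the genotype difference changed.

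The pathway that controls and assists GBPs was read from a list of 56 genes in 7 roles, of which 53 passed the filter. In KO-labelled cells 15 rose at T0, 1 rose at T6, 7 rose and 1 fell at T16, and 3 rose at T32. Over all genes 1.95%, 0.298%, 7.64% and 6.39% were called at these time points, so the count at T32 was near the share over all genes. The pathway counts depended on the fit and on single libraries. At T6 the count was 0 without WT T6 replicate 1, 2 or 3 or KO T6 replicate 3. At T16 the 8 called became 1 without WT T16 replicate 2, 3 without KO T16 replicate 1 and 2 without KO T16 replicate 3. At T32 the 3 became 1 without WT T32 replicate 1, 0 without WT T32 replicate 2, 6 without WT T32 replicate 3 or KO T6 replicate 2, and 5 without KO T0 replicate 2, WT T16 replicate 1 or WT T16 replicate 2. With only the groups compared the counts from T0 to T32 were 8, 0, 0 and 14. The list's median log2 difference was 0.24, 0.24, 0.24 and 0.31. Among ligands, Ifnb1, encoding interferon beta, was at 0.231 ± 0.132 CPM in WT and 1.26 ± 0.11 CPM in KO at T0 (n = 3 each, 2.51 ± 0.51, adjusted p = 0.00905), and at 5.29 ± 2.75 and 15.5 ± 2.9 CPM at T32 (1.56 ± 0.37, adjusted p = 0.0144). At T6 and T16 it did not pass (0.58 ± 0.40 and 0.90 ± 0.44). Ifng, encoding interferon gamma, was at or below 0.34 CPM on average in every group, and its genotype difference passed at no time point.

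Among transcription factors at T0, Irf7 (405 against 1585 CPM, 1.97 ± 0.24) and Stat2 (239.5 against 621.5 CPM, 1.38 ± 0.17) rose in KO, with adjusted p = 8.02e-05 and 8.16e-05. Stat2 carries the interferon signal and Irf7 amplifies it. Irf1, which drives many GBP promoters, differed by 0.44 ± 0.20, 0.43 ± 0.20, 0.40 ± 0.23 and 0.49 ± 0.20 from T0 to T32 and was not called. The factors called after T0 were Stat3 at T6 (0.55 ± 0.11) and T16 (0.43 ± 0.12), and Nlrc5, a regulator of MHC class I genes, at T16 (0.95 ± 0.18).

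Of 7 receptors and kinases, Jak2 (0.92 ± 0.24) and Ifnar1 (0.51 ± 0.15), a chain of the type I interferon receptor, rose at T16. Of the negative regulators Usp18, which dampens type I interferon signalling, rose at T0 (1.44 ± 0.24). The immunity-related GTPases Irgm1 (1.41 ± 0.22), Irgm2 (1.30 ± 0.20) and Iigp1 (2.19 ± 0.35), which act with GBPs at vacuoles, rose at T0, when 6 of the 16 genes of their role were called. Among inflammasome genes Casp4 rose at T0 (0.66 ± 0.16), T16 (0.70 ± 0.18) and T32 (0.70 ± 0.16), Casp1 at T16 (0.68 ± 0.20) and T32 (0.84 ± 0.18), and Aim2, a DNA sensor, at T16 (0.74 ± 0.15). Fntb, the beta chain of farnesyltransferase, fell by 0.64 at T16 (SE 0.16).

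With LPS in WT-labelled cells 40 of the 53 rose and 9 fell at T6, 33 rose and 1 fell at T16, and 31 rose and 3 fell at T32. Over all genes 27.3%, 18.8% and 24.5% rose and 31.9%, 17.2% and 21.9% fell at these time points. Ifnb1 rose at all 3 (3.42 ± 0.51, 3.16 ± 0.54 and 4.57 ± 0.49), while Ifng passed at none. Irf1 rose by 2.25 ± 0.21, 0.69 ± 0.22 and 0.57 ± 0.20. Irf7 (3.58 ± 0.27 and 3.07 ± 0.25) and Stat2 (1.89 ± 0.19 and 1.86 ± 0.17) were among the factors with the lowest p at T16 and T32, and Stat3 (2.91 ± 0.11), Nlrc5 (3.37 ± 0.17) and Batf2 (4.96 ± 0.31) had the lowest p at T6.

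Jak2 rose by 5.07 ± 0.24, 2.72 ± 0.23 and 2.53 ± 0.22 and Ifnar1 by 2.20 ± 0.14, 1.22 ± 0.15 and 0.93 ± 0.14 at T6, T16 and T32. Ifnar2 rose by 1.499 ± 0.13 at T6 and 0.66 ± 0.14 at T16, and Jak1 by 0.73 ± 0.25 at T32. Socs3, an inhibitor of cytokine signalling, rose by 7.44 ± 0.28, 5.18 ± 0.26 and 4.67 ± 0.25 and Usp18 by 4.32 ± 0.26, 3.07 ± 0.26 and 2.56 ± 0.24. Socs1 rose by 4.51 ± 0.48 at T6, and the phosphatase gene Ptpn6 by 1.496 ± 0.22 and 1.23 ± 0.20 at T16 and T32.

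Among the immunity-related GTPases, Igtp rose by 4.27 ± 0.26 at T6 and 2.61 ± 0.26 at T16, Irgm2 by 3.03 ± 0.21 at T6 and 1.95 ± 0.20 at T32, and Irgm1 by 3.33 ± 0.23 at T6. Tgtp2 (4.15 ± 0.47) and Gm12250 (2.62 ± 0.30) were among those with the lowest p at T16, and Iigp1 (3.71 ± 0.37) and Gm12250 (2.59 ± 0.28) at T32. Tgtp2 has a near-identical copy, Tgtp1, so its counts are uncertain. Casp4 rose by 3.59 ± 0.17, 1.49 ± 0.17 and 1.38 ± 0.16, Casp1 by 3.25 ± 0.19, 1.92 ± 0.20 and 1.40 ± 0.18 and Nlrp3 by 4.37 ± 0.23, 1.73 ± 0.22 and 1.67 ± 0.21 at T6, T16 and T32. Of the prenylation enzymes Pggt1b, a chain of a prenyltransferase, rose at T6 (1.89 ± 0.40) and T32 (1.60 ± 0.39), whereas Fntb (-0.82 ± 0.15) and the methyltransferase gene Icmt (-0.50 ± 0.13) fell at T6 and the shared chain gene Fnta (-0.73 ± 0.14) fell at T32.

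The pattern of the family over the 8 groups was summarised as the mean of the members' log2 CPM, each centred on its own mean. It was -2.85 in WT and -1.58 in KO at T0, 1.57 and 2.13 at T6, -0.46 and 1.001 at T16, and -0.54 and 0.73 at T32. Of the members Gbp7 lay nearest to it, with a root mean square difference of 0.158 over the 8 groups, followed by Gbp3 at 0.270, and Gbp8 lay furthest from it at 1.51. Among 9275 genes outside the family, those nearest were Slamf7 (0.230), a leukocyte surface receptor, Gm5970 (0.240), Tmem171 (0.244), Mxd1 (0.258), a partner of MAX, and Flrt3 (0.275). These are likenesses of 8 group means from shared libraries and carry no test.

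Markers of other cell types were read beside the genotype differences. Of 10 T and NK cell markers 4 passed the filter, with a median KO-WT log2 difference of 2.53, 0.49, 1.94 and 1.59 from T0 to T32. Prf1, encoding perforin, rose at T16 (0.479 against 0.0920 CPM) and T32 (0.299 against 0.0788 CPM). Their summed level was 9.6 to 33.6 CPM per KO library and 11.5 to 30.4 CPM per WT library, with overlapping ranges between genotypes at every time point. Cd4 made up most of it, at 11.7 to 27.6 CPM on average per group, and its genotype difference passed at no time point. Gzma and Cd8a were higher in every KO than in every WT library at T16 and T32, as were 20.4% and 17.5% of all genes. Their group means there were 0.366 CPM or less, and they did not pass. At T0 Cd8a (0.134 against 0.0114 CPM), Cd3d and Cd3e were also higher in every KO library, as were 8.79% of all genes. Cd8a did not pass the test at T0, and Cd3d and Cd3e did not pass the filter. Cd3d, Cd3e, Cd3g and Trac were at or below 0.223 CPM on average in every group. Defining markers at 0 in all libraries of a group were Prf1 in WT at T0, Cd3d, Cd3g and Trac in WT at T6, Klrb1c in KO at T6, and Trac and Gzma in WT at T16.

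The 8 neutrophil and precursor markers summed to 600.8 to 694.3 CPM in KO and 316.2 to 602.3 CPM in WT at T0, to 578.3 to 702 and 302.9 to 522.8 CPM at T6, to 300.3 to 372.9 and 134.5 to 323.3 CPM at T16, and to 84.5 to 131.1 and 48.8 to 68.1 CPM at T32, so that the ranges overlapped at T0 and T16. Of these Ly6g rose in KO at T0 and Ltf at T32. The 4 stromal markers summed to 311.3 to 337 CPM in WT and 62.6 to 171.2 CPM in KO at T16, with none called. Their ranges overlapped at T0 (23.6 to 176.5 in WT, 33.8 to 56.1 in KO), T6 (25.0 to 168.2 and 30.5 to 99.4) and T32 (36.9 to 366.1 and 46.5 to 181.8). The 5 B cell markers were at 7.94 to 18.7 CPM in KO and 9.20 to 12.3 CPM in WT at T16, and their 1 call was Cd79b, lower in KO at T32. The 5 dendritic cell markers reached at most 3.96 CPM in sum and the 4 erythroid markers 1.25 CPM. The 10 macrophage markers summed to 21890 to 22700 CPM in KO and 23690 to 28950 CPM in WT at T16. At T32 they summed to 21930 to 22590 and 24210 to 26480 CPM, and the ranges overlapped at T0 and T6. The median KO-WT log2 difference of these markers was -0.08 at T16 and -0.23 at T32. Lyz2 was the largest part of the sum at T0 and T6, at 12220 to 13900 CPM on average per group. Of the macrophage markers 1 was called higher in KO at T0, 1 higher at T16 and 1 lower at T32. Beside these and the calls of the other marker lists, 1.95%, 7.64% and 6.39% of all genes were called at T0, T16 and T32. The macrophage counts at T16 and T32 were near those shares. The part of macrophage content and of other cells in the GBP differences was not tested.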

How the data were processed

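RNA-seq counts of 23 libraries were analysed. Per the labels' protocols, DNase-treated RNA was made into libraries with a TruSeq RNA kit, which does not mark strand, and read as single-end 50 bp. Per the submitters' processing notes, GSNAP and GRCm38 were used. For each Ensembl gene the authors deposited the raw count of uniquely aligned reads, per the file headers, and a size-factor-adjusted RPKM (nRPKM). All tests used the counts, and nRPKM served only to compare levels between genes.

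In R 4.3.3, edgeR 4.0.16 kept genes by filterByExpr on the 8 groups (15782 of 52636), scaled by TMM (factors 0.677 to 1.45) and fitted a robust quasi-likelihood model to all libraries (common biological coefficient of variation 0.217). SE is the log2 difference over the square root of F. Chi-square values per degree of freedom between replicates were 12.8 to 172.1, above sampling noise. Since separate cultures or mice are not named, the p-values cover only the spread among these libraries, which may be technical. In each WT-labelled group Y-linked transcripts were above the threshold in part of the libraries only. Those WT replicates were therefore not all from the same cells, while the source of the other libraries is unknown. On simulated data 52% of genes changed 2-fold and 86% of those changed 4-fold were recovered for T0 (15580 genes), and 40% and 81% for T16 (15586 genes). The simulated libraries were drawn independently from the fitted count model, with none standing apart as some did here. Recovery in the real data may therefore be lower.

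The members, lists and tests were chosen with earlier results of these data known. All 10 members were described. Of the pathway list, called genes with the 3 lowest p per role were named, and Ifnb1, Ifng, Irf1 and Stk40 in any case. Some genes of the lists are not reported here by name. The 5 genes nearest in pattern had a mean of at least 5 CPM. Alternatives were other scaling, no filter, DESeq2 1.42.0, only the groups compared, sex of the culture, and leaving libraries out. Same-numbered libraries correlated in their deviations at 0.33 to 0.59 at T6 but at -0.32 to 0.16 at other time points, so the numbers did not pair the samples as a whole.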

Additional observations from a re-analysis of the deposited data

How the results depend on the processing

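Calls depended on the fit more than the log2 differences did. At T0, where 5 members were called in KO-labelled cells, 2 were called with only the groups compared, 8 with DESeq2 and 4 to 7 leaving out each library in turn. At T6 the count of 0 became 1 with DESeq2 and 0 to 1 leaving out libraries. At T16 the 8 became 0 with only the groups compared, 0 without the Y-linked WT libraries and 0 to 9 leaving out libraries, and at T32 the 8 became 2 to 9 leaving out libraries. Between T16 and T32 the 0 became 6 with only the groups compared and 1 with DESeq2 in KO, and in WT 1 with sex of the culture as covariate, 1 with DESeq2, 1 without the Saa3-led T6 libraries and 0 to 1 leaving out libraries. The interaction at T6 gave 1 with DESeq2 and 0 to 1 leaving out libraries, and at T32 0 to 1. Shares of all genes called under these alternatives are not given beside these counts.

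Pathway genes called in KO-labelled cells at T0 (15) were 8 with only the groups compared and 11 to 15 leaving out libraries. At T6 (1) they were 0 with library totals, 0 with no filter, 0 with only the groups compared, 0 without the Saa3-led libraries, 2 with DESeq2 and 0 to 1 leaving out libraries. At T16 (8) they were 4 with no filter, 0 with only the groups compared, 14 with sex as covariate, 0 without the Y-linked WT libraries, 13 with DESeq2 and 1 to 11 leaving out libraries. At T32 (3) they were 5 with library totals, 14 with only the groups compared, 11 with sex as covariate, 8 without the Y-linked WT libraries, 10 with DESeq2, 7 without the Saa3-led libraries, 5 with the replicate block and 0 to 6 leaving out libraries. The replicate block, chosen after seeing the data like the Saa3 alternative, called 4 members at T0 (without Gbp2), 0 at T6, 9 at T16 (with Gbp10) and 8 at T32, and moved no other count of members by over 1.5 times. The cause of these changes was not tested.

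With library totals as scaling the median log2 difference over all genes was -0.15 to -0.20 for KO against WT, and -0.94 in WT and -1 in KO for T6 against T0. Of 7053 values of single genes under the alternatives, 37 changed sign, none of them called in either fit. With library totals these were Gbp2 at T6 (-0.055) and in KO-labelled cells Gbp8 at T32 against T0 (-0.23) and at T16 against T6 (0.36). Gbp8 in KO at T6 against T0 became 0.11 with RLE size factors, 0.047 with only the groups compared and 0.11 with DESeq2, and at T16 against T0 0.0057 and 0.0051 with RLE and DESeq2. At T16 against T6 in KO, Gbp8 became 0.032 with no filter and 0.23 without the Saa3-led libraries, and Gbp10 -0.16 without them. Leaving out single libraries gave ranges across 0 for Gbp11 at T0 (-0.024 to 0.72), Gbp2 at T6 (-0.067 to 0.33), Ifng at T32 against T0 in WT (-0.045 to 2.35), Gbp8 at T6 against T0 in WT (-0.31 to 0.20) and KO (-0.24 to 0.14), at T16 and T32 against T0 in KO (-0.29 to 0.13 and -0.16 to 0.30) and at T16 against T6 in KO (-0.29 to 0.23), and Gbp10 there (-0.23 to 0.46). Low counts limit Gbp10, with 0 to 98 per library, and Gbp11, with 14 to 413. Gbp10 shared 84.1% of its 50-base words with other genes, and only uniquely aligned reads were counted. Its low counts are therefore no measure of how little it was expressed. The parts of depth and of shared sequence were not tested.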
